A study of Homo sapiens and Mus musculus with 69 samples.

Results

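Complement components and regulators were followed as 9 genes: C1R, C1S, C3, CFB, CFI, CD46, CD55, CD59 and SERPING1. They were matched by symbol to 9 of the 20516 genes of the human expression table, and the list was drawn up with earlier results of these data known. The same symbols in title case found 5 of the 18501 genes of the mouse table, which were C3, Cfi, Cd46, Cd55 and Serping1.

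RNA-Seq of 69 libraries covered the human small cell lung cancer lines H82, H524, H69 and COR-L88 in 20 groups (60 libraries) and the mouse small cell lung cancer line KP1 in 3 groups (9 libraries), with 3 libraries in each group. H82, H524 and H69 were sequenced as parental cells and as cells carrying a doxycycline-inducible NOTCH1 intracellular domain (N1ICD), with and without doxycycline, which asked what active Notch signalling does to these tumour cells. N1ICD cells of H82 were also sequenced after REST KO and after STING KO, and H524 carried an inducible REST vector in place of N1ICD. The KO cells on the study's immunoblots were single-cell clones, and whether the sequenced KO libraries came from 1 clone or several is not given in the sources used here. COR-L88 received DMSO, TAS1440, TAS1440 plus a gamma secretase inhibitor (GSI), or DMSO and TAS1440 after STING KO. TAS1440 is an LSD1 inhibitor that, per the paper, raised NOTCH1, NOTCH2 and REST in COR-L88. A GSI blocks Notch cleavage, and the paper states that such drugs also act on other membrane proteins. KP1 received DMSO, TAS1440 and TAS1440 plus GSI. The inducible cells were lentiviral lines in which the doxycycline groups were kept on the drug in long-term culture and their adherent cells collected, whereas uninduced cells grew without it. The GSI was BMS-708163 in COR-L88 and DBZ in KP1, so the compound and the species change together. The labels do not say whether libraries of a group came from separate cultures, so the p-values below measure only the spread between these libraries.

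Complement is a cascade of plasma and cell-surface proteins that marks targets for uptake or lysis. The proteases C1r and C1s start the classical pathway, C3 is the component on which all pathways converge, and factor B (CFB) carries the protease of the alternative pathway. Regulators keep the cascade off host cells: factor I (CFI) and C1 inhibitor (SERPING1) act mainly in the fluid phase, while CD46, CD55 and CD59 sit in the cell membrane. The liver is the main source of the plasma proteins, but many epithelial and tumour cells express these genes, and tumour cells often carry the membrane regulators.

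By GRCh37, the annotation of the files' hg19 build, C1R lies at chr12:7187513-7245203 on the minus strand and C1S at chr12:7096351-7178336 on the plus strand. C3 lies at chr19:6677715-6730573 (minus strand) and CFB at chr6:31913427-31919863 (plus strand). CFI is at chr4:110652164-110723306 (minus strand) and SERPING1 at chr11:57364860-57386644 (plus strand). CD46 and CD55 share a region of chromosome 1, at chr1:207925382-207968858 and chr1:207494864-207560149, both on the plus strand, and CD59 is at chr11:33724556-33758025 on the minus strand. Values are whole-gene values. On the same strand C1R shares 3021 bases with C1RL, C3 649 with GPR108 and CFB 24 with C2, and C1S, CFB, CFI and CD59 share 9170, 6399, 70992 and 19458 bases with protein-coding genes that carry no symbol in the annotation. On the opposite strand C1S shares 29431 bases with LPCAT3 and CD46 34864 with MIR29B2CHG. The library kit was stranded, but whether counting used strand is not given in the sources used here, so reads in shared bases could have been assigned to either gene.

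Upstream sequences of CFB and CFI are shown because both members read at most 0.89 in every library without doxycycline or TAS1440 and were called higher in H82 and COR-L88. Promoter windows from RefSeq on GRCh38.p14 matched 6 of the 9 members, and C1S, C3 and SERPING1 had no entry. The 250 bases before the annotated start are printed 5′ to 3′ on the gene's strand, for CFB chr6:31945845-31946094 on the plus strand and for CFI chr4:109802000-109802249 on the minus strand. Capitals mark matches to 4 motifs searched on both strands.
CFB: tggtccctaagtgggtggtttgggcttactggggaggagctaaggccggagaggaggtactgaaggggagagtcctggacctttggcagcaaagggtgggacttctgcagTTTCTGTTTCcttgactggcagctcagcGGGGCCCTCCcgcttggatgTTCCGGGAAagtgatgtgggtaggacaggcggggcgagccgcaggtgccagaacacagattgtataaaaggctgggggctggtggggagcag
CFI: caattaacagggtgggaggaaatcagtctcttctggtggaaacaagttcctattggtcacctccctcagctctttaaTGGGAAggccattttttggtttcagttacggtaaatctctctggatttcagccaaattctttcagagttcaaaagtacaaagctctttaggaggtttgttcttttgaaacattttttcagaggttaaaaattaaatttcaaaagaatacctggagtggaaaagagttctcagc
In CFB the capitals are, in order, an ISRE core (GAAANNGAAA, read on the other strand), an NF-kB site and a GAS motif (TTCNNNGAA), starting 140, 112 and 92 bases before the start, with no overlap between them. In CFI the single match, 173 bases before the start, is the RBPJ core (TGGGAA). Of 35116 windows of the same length in all genes, 3.02% held the ISRE core, 9.96% the NF-kB site, 6.57% the GAS motif and 20.8% the RBPJ core. The single CD55 window and both CD46 windows held none of these letters, 1 of the 2 C1R windows held a GAS motif, and of the 4 CD59 windows 2 held a GAS motif and 1 an RBPJ core. The 2 CD59 windows with a GAS motif overlap and hold the same site. A match is a description of letters and not evidence of binding.

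Values are log2(RPKM + 1), where RPKM is the read count scaled by transcript length and library size, so 0 is the floor of the scale. Differences between groups keep this scale, on which the change of a low gene looks smaller than it is, and they carry the standard error (SE) of a limma model with all groups of the line. A member was called higher or lower when its difference was at least 1 and its Benjamini-Hochberg adjusted p, over all genes tested in the line, was under 0.05. A gene was tested only where 3 or more libraries of the line, or of all human libraries for differences between lines, reached a value of 1. Without the libraries given doxycycline or TAS1440, some members would have failed the filter of their line. These were C1R, C1S, C3, CFB and CFI in H82 and C3 and CFI in H524. They were also C3 and CD55 in H69 and CFB and CFI in COR-L88. A call of lower with treatment was hardly possible for them, so their part in counts of members lowered carries no weight. They were tested only because treated libraries read high, so the filter also favours their part in counts of members called higher. The counts below were not corrected for this. Read counts were not given, and the relative sizes of the human libraries, read from the smallest values, were 0.698 to 1.52 times their median (0.872 to 1.07 in KP1). Those of the H82 libraries labelled STING KO were 0.714 to 0.821 and those of the intact H82 N1ICD libraries 1.03 to 1.35. The part of library size in the contrasts between them was not tested.

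Of the 60 human libraries, 4 correlated best with a library of another group of their line, and no pair was identical. NOTCH1, for which reads of the vector and of the cells' own gene cannot be told apart, was 4.86 ± 0.66 (SD, n = 3) in H82 N1ICD cells with doxycycline and 1.16 ± 0.29 without. REST was 5.26 ± 0.54 in H82 REST KO cells with doxycycline and 6.31 ± 0.18 in their intact counterparts, and TMEM173, the table's symbol for STING1, was 1.07 ± 0.10 against 2.20 ± 0.29 in COR-L88 under TAS1440 with STING KO and intact. In H82 with doxycycline TMEM173 was 1.61 ± 0.39 in the cells labelled STING KO and 1.11 ± 0.05 in the intact cells, so its RNA was not lower there, and an RNA level cannot show a disrupting edit. The paper shows immunoblots of single-cell REST KO and STING1 KO clones, and that protein evidence was not assessed here. All 3 hepatocyte markers (ALB, APOA1 and SERPINA1) stayed under 1 in all human libraries. Of 4 leukocyte markers, PTPRC reached at most 0.379 and CD14 reached 4.88. In bulk RNA, fewer cells of a kind and less RNA per cell cannot be told apart.

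**Figure D1:**
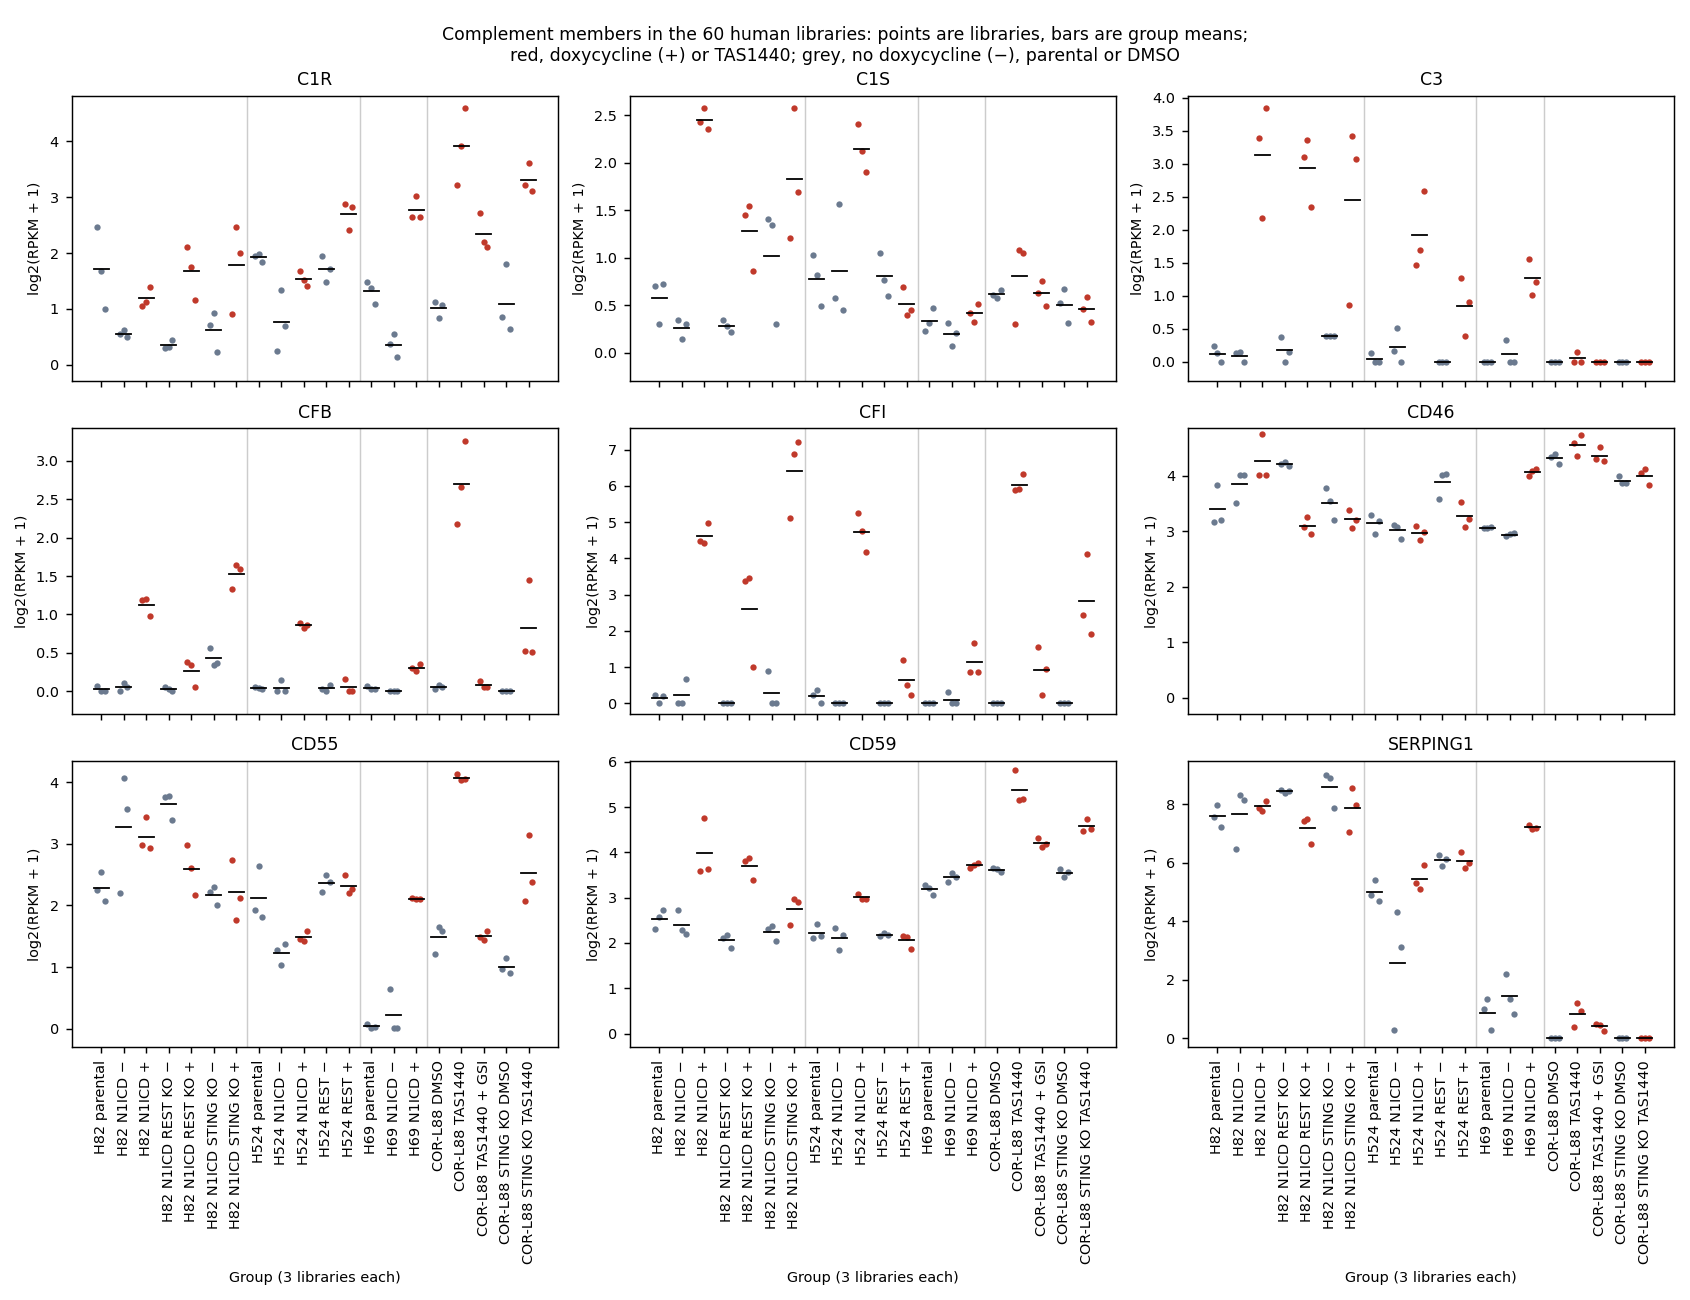
Levels of the 9 members, as log2(RPKM + 1), in the 60 human libraries, with 1 point per library and a bar at each group mean; red groups received doxycycline or TAS1440. CFI lies at 0.89 or below in every group without doxycycline or TAS1440 and reaches 7.22, while SERPING1 is at 0 in COR-L88 with DMSO and near 8 in H82.

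Across the 20 human groups SERPING1 and CFI covered the widest ranges of group means, 8.59 and 6.40, and CD46 the narrowest, 1.62. The highest CFI means were 6.40 ± 1.13 (SD, n = 3) in H82 cells labelled STING KO with doxycycline and 6.03 ± 0.24 in COR-L88 with TAS1440, and the libraries of these groups overlapped. Next came H524 and H82 N1ICD cells with doxycycline, at 4.72 ± 0.53 and 4.63 ± 0.31, which overlapped each other but lay below COR-L88 with TAS1440. CFB was highest in COR-L88 with TAS1440, at 2.70 ± 0.54, above the 1.52 ± 0.17 of the H82 cells labelled STING KO with doxycycline and the 1.12 ± 0.12 of intact H82 N1ICD cells with doxycycline, with no overlap along this order. C3 was at or near 0 in all 15 libraries of COR-L88, where the highest value was 0.15. Its highest means, 3.13 ± 0.86, 2.93 ± 0.53 and 2.45 ± 1.39, were those of the 3 H82 groups with doxycycline, which overlapped. SERPING1 was at 6.48 or above in every H82 library. In COR-L88 it was listed at 0 in all libraries of 3 of the 5 groups.

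In H82, N1ICD induction raised 5 of the 9 members, which were C1S, C3, CFB, CFI and CD59, and lowered none. Among all 13903 genes tested, 14.7% were called higher and 12.4% lower. The median difference over the 9 members was 1.07, and that over all 20516 genes was 0. CFI, the protease that cleaves C3b and C4b, read 4.49, 4.41 and 4.98 with doxycycline and 0, 0 and 0.67 without, a difference of 4.40 ± 0.54 (SE, adjusted p = 2.35e-06). C3 read 3.39, 2.17 and 3.84 with doxycycline, whereas the uninduced libraries read 0.14, 0.14 and 0 (difference 3.04 ± 0.48, adjusted p = 4.67e-05). Both groups were separate for these genes, and induced C3 was the more scattered. C1S values were 2.42, 2.58 and 2.35 against 0.35, 0.14 and 0.31, a difference of 2.18 ± 0.30 (adjusted p = 9.14e-06). CFB reached 1.19, 1.20 and 0.98 from at most 0.11, a difference of 1.07 ± 0.12 (adjusted p = 9.89e-07) that became 0.85 and lost its call with quantile normalization. CD59, which blocks the membrane attack complex, was 3.58, 4.76 and 3.62 with doxycycline and 2.73, 2.29 and 2.20 without, a difference of 1.58 ± 0.26 (adjusted p = 7.59e-05). The remaining members were not called. C1R was 1.19 ± 0.18 (SD, n = 3) with and 0.56 ± 0.06 without doxycycline, with no overlap, but parental H82 cells reached 2.47. CD46 was 4.27 ± 0.43 against 3.85 ± 0.29, CD55 3.11 ± 0.28 against 3.28 ± 0.97 and SERPING1 7.93 ± 0.17 against 7.66 ± 1.02. Library 4 of the uninduced cells stood apart for CD55 (2.20 against 4.06 and 3.57) and SERPING1 (6.48 against 8.32 and 8.16), and without it the SERPING1 difference changed from 0.28 to -0.31.

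H524 gave 4 members called higher with N1ICD induction, C1S, C3, CFI and SERPING1, and none lower, with 8 of 9 members tested. Of all genes tested in H524, 11.4% were called higher and 7.19% lower. The median difference over all 9 members was 0.89, against 0 over all genes. CFI was listed at 0 in all 3 uninduced libraries and read 5.24, 4.74 and 4.18 with doxycycline (difference 4.72 ± 0.26, adjusted p = 7.62e-09), so no fold change can be given. C3 rose to 1.46, 1.69 and 2.59 from 0.16, 0.51 and 0, a difference of 1.69 ± 0.27 (adjusted p = 0.000236), and C1S to 2.41, 2.12 and 1.91 from 0.58, 1.56 and 0.45, a difference of 1.28 ± 0.26 (adjusted p = 0.00182). SERPING1, which inhibits C1r and C1s, read 5.30, 5.12 and 5.93 with doxycycline and 0.30, 4.32 and 3.13 without, a difference of 2.86 ± 0.69 (adjusted p = 0.00599). Library 22 was far below the rest, and parental H524 cells, at 4.89, 5.42 and 4.68, were close to the induced level. The SERPING1 call was lost when only the compared groups were modelled (adjusted p = 0.0701). CD59 was 3.00 ± 0.07 against 2.11 ± 0.25 (difference 0.89 ± 0.15, adjusted p = 0.000524) and missed the size limit, as did C1R at 1.53 ± 0.14 against 0.76 ± 0.56. Both were called with a pseudocount of 0.1 (1.06 for CD59 and 1.53 for C1R), and C1R also without library 23 (1.07). Parental H524 cells, at 1.94, 1.99 and 1.83 for C1R, lay above every induced library (1.67, 1.52 and 1.40). CFB, below the filter in H524, read 0.89, 0.83 and 0.86 with doxycycline and at most 0.14 without.

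H69 showed another set of members. N1ICD induction raised C1R, C3, CD46, CD55 and SERPING1, 5 of the 9 members with 6 tested, and lowered none. In this line 21.4% of all genes tested were called higher and 20.4% lower, the broadest background of the 3 induced lines. The median difference over all 9 members was 1.13, against 0 over all genes. SERPING1 went from 2.20, 1.34 and 0.85 to 7.31, 7.16 and 7.19, a difference of 5.76 ± 0.35 (adjusted p = 6.58e-07). C1R went from 0.37, 0.56 and 0.14 to 2.65, 3.03 and 2.65, a difference of 2.42 ± 0.16 (adjusted p = 9.36e-07). Both groups were separate for each of these genes, and parental C1R, at 1.08 to 1.49, lay between them. CD55, which speeds the decay of C3 convertases, was 0.64, 0.01 and 0.01 without doxycycline and 2.12, 2.10 and 2.11 with it, a difference of 1.89 ± 0.15 (adjusted p = 4.17e-06). CD46, the cofactor with which factor I cleaves C3b, was 2.91, 2.95 and 2.96 without and 4.00, 4.09 and 4.12 with doxycycline, a difference of 1.13 ± 0.05 (adjusted p = 1.44e-07). C3 read 1.56, 1.02 and 1.21 after induction and 0.33, 0 and 0 before (difference 1.15 ± 0.14, adjusted p = 7.2e-05). CFI, under the filter in this line, was 0.88, 1.66 and 0.86 with doxycycline and at most 0.31 without, CFB was at most 0.36 and C1S at most 0.51 in any H69 library. CD59 was already at 3.45 ± 0.11 (SD, n = 3) without doxycycline and 3.72 ± 0.05 with it, which was not called. Uninduced H69 cells with the vector also differed from parental cells in the lineage factor NEUROD1, at 9.39 against 4.37 as group means.

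**Figure D2:**
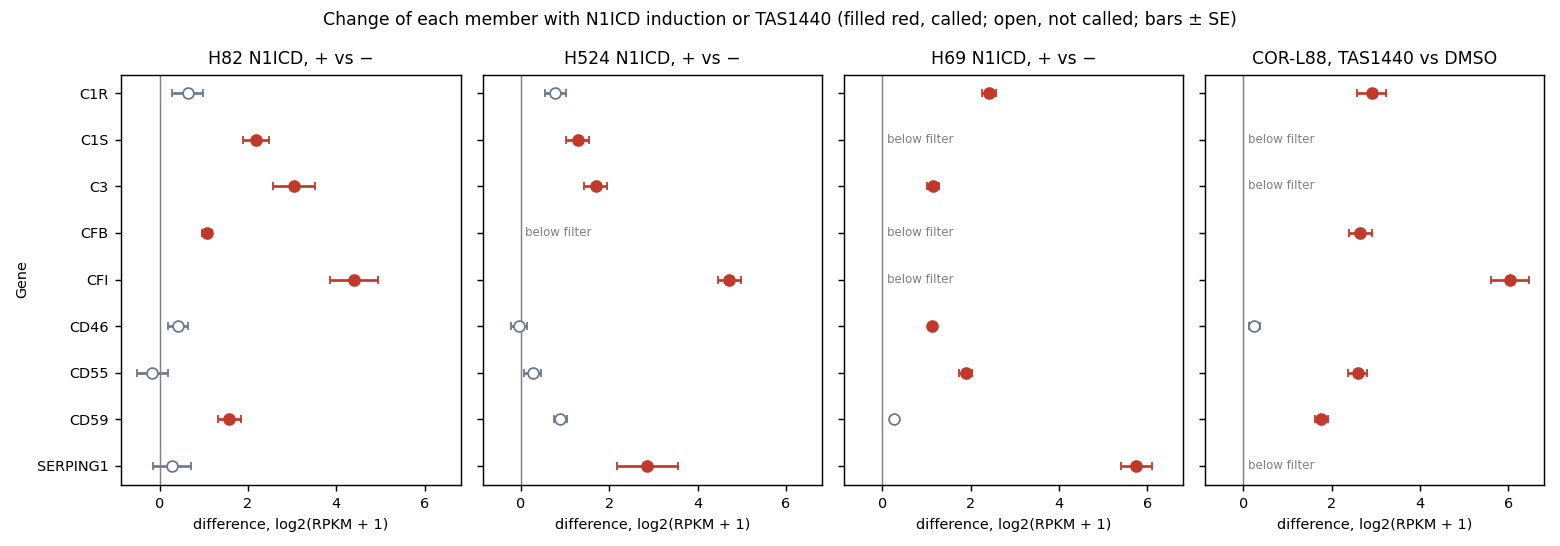
Difference of each member, in log2(RPKM + 1), with doxycycline in N1ICD cells of H82, H524 and H69 and with TAS1440 in COR-L88; points carry ± SE, filled points were called, and members under the filter are named as such. CFI is among the largest in H82, H524 and COR-L88, whereas SERPING1, at 5.76, is the largest in H69.

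The line difference itself was tested as the H69 response minus the H82 response, with all human groups in the model and 15888 genes tested. The members with the larger response in H69 were SERPING1 by 5.48 ± 0.71, CD55 by 2.05 ± 0.39 and C1R by 1.78 ± 0.45 (adjusted p = 7.43e-09, 1.36e-05 and 0.000722). Those with the larger response in H82 were CFI (-3.38 ± 0.63), C1S (-1.97 ± 0.35), C3 (-1.89 ± 0.48) and CD59 (-1.31 ± 0.27), with adjusted p of 1.1e-05, 5.83e-06, 0.0008 and 6.3e-05. Across all genes 21.9% were called higher and 21.2% lower in this contrast. C3, CFB and CFI reached a value of 1 only in human libraries given doxycycline or TAS1440. They therefore entered the tests between lines through those libraries alone. The CD59 call was lost without library 8 of induced H82 (-0.93 in place of -1.31), and CFB, at -0.76, was called with a pseudocount of 0.1 (-1.48). H69 minus H524 gave 4 members higher, SERPING1, C1R, CD55 and CD46, and 2 lower, CFI and C1S, beside 17.8% and 19.0% of all genes. H524 minus H82 gave SERPING1 higher and C3 lower, beside 10.1% and 9.59% of all genes, and both calls were lost when only the compared groups were modelled (adjusted p = 0.172 and 0.129). The C3 call of this contrast (-1.35) was also lost without library 6, 7, 9, 23, 25 or 26, with values from -1.30 to -0.997, and with a pseudocount of 0.1 (-1.96, adjusted p = 0.0785). C1S, at -0.90 and not called, was called with that pseudocount (-1.86) and without library 22 (-1.04), 24 (-1.11) or 25 (-1.03). In H69 minus H524 the C1S call (-1.07) was lost without library 22 (-0.93), 24 (-0.86) or 25 (-0.93) with quantile normalization (-0.92), with median centring (-0.94) and with a pseudocount of 0.1 (-1.24, adjusted p = 0.147), and that of SERPING1 with only the compared groups (adjusted p = 0.0563). Each pair of these contrasts shares a line.

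Neuroendocrine markers differed with N1ICD induction. The summed level of 5 markers (NEUROD1, SYP, CHGA, INSM1 and NCAM1) was 7.96 to 10.5 with and 34.2 to 35.5 without doxycycline in H82, 25.7 to 29.6 and 38.3 to 39.1 in H524, and 5.29 to 5.68 and 35.6 to 36.8 in H69. It was 19.0 to 20.9 with and 33.7 to 34.2 without doxycycline in H82 REST KO cells, 5.57 to 12.9 and 24.7 to 29.0 in those labelled STING KO, and 34.5 to 37.9 and 38.6 to 39.7 with the REST vector in H524. The summed level of the 4 leukocyte markers, PTPRC, CD3E, CD14 and CD68, was 5.71 to 5.92 with and 3.48 to 3.87 without doxycycline in H69, carried by CD14 at 4.79 ± 0.08 (SD, n = 3) and 3.28 ± 0.27, while PTPRC was at most 0.0236 in the induced libraries. That sum was 1.46 to 3.07 with and 2.37 to 3.70 without doxycycline in H82, and 4.39 to 5.01 and 2.71 to 4.27 in H524. The part of these shifts in the complement results was not tested.

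The question for REST KO in H82 was whether REST, a repressor of neuronal genes, takes part in the Notch response. With doxycycline, 5 members were higher than without it in REST KO cells (C1R, C1S, C3, CFI and CD59) and 3 were lower (CD46, CD55 and SERPING1), beside 16.2% and 13.7% of all genes. C3 read 3.10, 3.35 and 2.34 against 0.38, 0 and 0.15, a difference of 2.76 ± 0.48 (adjusted p = 0.000115). CFI was listed at 0 in all 3 uninduced libraries and read 3.37, 3.46 and 1.02 with doxycycline (difference 2.62 ± 0.54, adjusted p = 0.000526), and CD59 read 3.82, 3.86 and 3.38 against 2.12, 2.18 and 1.89 (difference 1.63 ± 0.26, adjusted p = 5.03e-05). Library 33 was the lowest of the induced REST KO libraries for each of the 9 members. C1R was 1.67 ± 0.49 (SD, n = 3) against 0.35 ± 0.08 and C1S 1.29 ± 0.37 against 0.28 ± 0.06, and both calls were lost with quantile normalization (0.87 and 0.52), that of C1S also with median centring (0.93). Parental H82 cells, at 2.47, 1.67 and 0.99 for C1R, overlapped the induced REST KO cells. CFB read 0.38, 0.34 and 0.06 with doxycycline and at most 0.05 without, a difference of 0.24 that was not called and was 1.23 and called with a pseudocount of 0.1. CD46 fell by 1.12 ± 0.23 on the log2 scale, from 4.22, 4.24 and 4.18 to 3.08, 3.27 and 2.95 (adjusted p = 0.000473). CD55 fell by 1.05 ± 0.36 and SERPING1 by 1.27 ± 0.44 (adjusted p = 0.0195 and 0.0208), and without library 33 these were -0.84 and -0.996 with neither called. Leaving out library 28 ended both calls as well (-0.99 and -1.25), library 29 that of CD55 (-0.98), and libraries 30, 31 or 32 that of C1S (0.97, 0.92 and 0.87).

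Set against intact cells with doxycycline, REST KO cells had 3 members lower, C1S, CFI and CD46, and none higher, beside 8.21% lower and 9.44% higher among all genes. CFI was 2.62 ± 1.39 against 4.63 ± 0.31 (difference -2.01 ± 0.54, adjusted p = 0.0066), C1S 1.29 ± 0.37 against 2.45 ± 0.12 (-1.17 ± 0.30, adjusted p = 0.00521) and CD46 3.10 ± 0.16 against 4.27 ± 0.43 (-1.17 ± 0.23, adjusted p = 0.000589). The CFI call was lost with a pseudocount of 0.1 (adjusted p = 0.0619) and with only the compared groups (adjusted p = 0.0507), the CD46 call without library 8 (-0.93) and the C1S call without library 33 (-0.95). CFB was lower in all 3 REST KO libraries, with a difference of -0.86 ± 0.12 (adjusted p = 2.55e-05) that missed the size limit and was -2.21 and called with a pseudocount of 0.1. Without doxycycline, limma called no member between REST KO and intact cells and none reached an unadjusted p under 0.05, beside 3.39% higher and 2.85% lower among all genes. The difference of the doxycycline responses was called for CD46 alone among the members (-1.54 ± 0.32, adjusted p = 0.00248), beside 7.46% higher and 5.46% lower among all genes. The corresponding difference for CFB was -0.83 ± 0.17 (adjusted p = 0.00228), under the size limit, and was called with a pseudocount of 0.1 (-1.99). That for C1S was -1.18 ± 0.42 (adjusted p = 0.0655), and it was called with quantile normalization (-1.42) and with only the compared groups (adjusted p = 0.00657).

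REST expression in H524, by contrast with N1ICD, gave no call in either direction by limma, with 4 of 8 tested members at an unadjusted p under 0.05 and 1, C1R, at an adjusted p under 0.05. Few genes were called in all, 1.28% higher and 0.586% lower. C1R read 2.88, 2.41 and 2.83 with doxycycline and 1.95, 1.48 and 1.71 without, a difference of 0.99 ± 0.24 (adjusted p = 0.0437) just under the size limit. C3 read 1.26, 0.38 and 0.90 against 0 in all 3 uninduced libraries, and CFI 1.20, 0.51 and 0.24 against 0. Both were called only with a pseudocount of 0.1 (adjusted p = 0.0194 and 0.0321). SERPING1, at 6.06 ± 0.29 with and 6.10 ± 0.21 without doxycycline, was close to or above its level in the other H524 groups. Between the 2 vectors with doxycycline, N1ICD cells had C1S, C3 and CFI higher and C1R lower, beside 12.3% and 11.5% of all genes. The vector lines also differed without doxycycline. C1R was then 0.76 ± 0.56 in N1ICD cells and 1.72 ± 0.24 in REST cells, and CD55 1.23 ± 0.17 and 2.36 ± 0.13. CFI differed by 4.07 ± 0.26 (adjusted p = 3.02e-08), C1S by 1.63 ± 0.26 (adjusted p = 0.00021) and C1R by -1.17 ± 0.24 (adjusted p = 0.00135). The C3 difference of 1.06 ± 0.27 (adjusted p = 0.00549) was 0.73 without library 27, 0.83 without library 38 and 0.99 with quantile normalization, none of them called. CD55 (-0.82) and CD59 (0.95) were under the size limit and were called with a pseudocount of 0.1 (-1.09 and 1.13), CD59 also without library 37 (1.00). For the responses themselves, N1ICD minus REST, CFI (4.07 ± 0.36), C1S (1.58 ± 0.37) and CD59 (1.01 ± 0.22) were called higher (adjusted p = 2.80e-06, 0.00825 and 0.00493), beside 9.88% higher and 5.68% lower among all genes. The CD59 call lay at the size limit and was lost without library 23 (0.88), 25 (0.97), 35 (1.00) or 39 (0.92), with quantile normalization (0.98) and with median centring (0.93). The differences of responses for C1R (-0.21) and CD55 (0.30) were not called by limma (adjusted p = 0.708 and 0.492). SERPING1 had a difference of 2.91 ± 0.98 that was not called (adjusted p = 0.0546), and it was called without library 22, at 1.77, and without library 23, at 3.77.

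STING KO in H82 was read with the label check above in mind. In the cells labelled STING KO, doxycycline raised C1R, C3, CFB and CFI and lowered none, beside 12.2% higher and 8.07% lower among all genes. CFI read 5.11, 6.87 and 7.22 with doxycycline and 0.89, 0 and 0 without, a difference of 6.11 ± 0.54 (adjusted p = 5.94e-08). C3 read 0.86, 3.42 and 3.07 against 0.39, 0.39 and 0.38, a difference of 2.06 ± 0.48 (adjusted p = 0.00244). CFB read 1.33, 1.64 and 1.59 against 0.56, 0.35 and 0.37, a difference of 1.10 ± 0.12 (adjusted p = 1.07e-06). Library 58 was the lowest of the induced libraries for these 3 genes. The C1R call (1.17 ± 0.36, adjusted p = 0.015) was lost with only the compared groups (adjusted p = 0.0638) and without library 57 (0.98), 59 (0.83) or 60 (1.07), and C1S, at a difference of 0.81, was called without library 55 (1.00) or 58 (1.12). For C1R the induced values, 0.91, 2.47 and 2.00, overlapped those of parental H82 cells, 2.47, 1.67 and 0.99. With quantile normalization only C3 and CFI were called.

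Against intact induced cells, those labelled STING KO had CFI higher (1.77 ± 0.54, adjusted p = 0.0143) and CD46 and CD59 lower (-1.05 ± 0.23 and -1.23 ± 0.26, adjusted p = 0.00152 and 0.00149), beside 7.72% and 8.75% of all genes. These 3 calls depended on single libraries, and that of CFI was lost with a pseudocount of 0.1 (adjusted p = 0.142). Without library 8 none was called (CFI 1.66, CD46 -0.81, CD59 -0.84), without library 59 neither CFI (1.54) nor CD46 (-0.97), and without library 60 not CFI (1.36), while without library 58 C1R (1.05) and CD55 (-1.17) were called as well, CD55 also with the pseudocount (-1.07). Without doxycycline, CD55 alone was called, lower by -1.10 ± 0.36 (adjusted p = 0.0223), beside 6.64% higher and 7.72% lower among all genes. Its values were 2.21, 2.30 and 2.01 against 2.20, 4.06 and 3.57, which overlap, and the call was lost without library 5 (-0.71), 6 (-0.96), 55 (-1.12) or 57 (-1.02) and with only the compared groups (adjusted p = 0.147). CFB and C3, both not called, were higher in every library labelled STING KO. CFB read 0.56, 0.35 and 0.37 against at most 0.11 (difference 0.37, adjusted p = 0.0241), under the size limit. C3 read 0.39, 0.39 and 0.38 against at most 0.14 (difference 0.29, adjusted p = 0.688). Without library 57, C1S (1.11) and SERPING1 (1.30) were called, as were C1S (1.74) and CFB (1.69) with a pseudocount of 0.1 and SERPING1 (1.23) with quantile normalization. The difference of the doxycycline responses was called for C1S alone (-1.38 ± 0.42, adjusted p = 0.0489), beside 3.91% higher and 3.21% lower among all genes. With 1 library left out this call was lost for 10 of 12 libraries, with adjusted p values up to 0.133, and it was also lost without the filter (adjusted p = 0.0655), with a pseudocount of 0.1 (adjusted p = 0.0569) and with only the compared groups (adjusted p = 0.113). Leaving out library 58 instead called CFI (2.35), and leaving out library 4 or 7 called CD59 (-1.22 and -1.27).

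In COR-L88, TAS1440 raised C1R, CFB, CFI, CD55 and CD59, 5 of the 9 members with 6 tested, and lowered none. Beside them, 15.3% of all genes tested were called higher and 7.46% lower. The median difference over all 9 members was 1.77, against 0 over all genes. CFI was listed at 0 in all 3 DMSO libraries and read 5.87, 5.91 and 6.31 with TAS1440 (difference 6.03 ± 0.43, adjusted p = 1.16e-07). CFB read 2.18, 2.66 and 3.26 against 0.03, 0.08 and 0.05, a difference of 2.65 ± 0.26 (adjusted p = 1.43e-06), and C1R 3.23, 3.92 and 4.60 against 1.12, 0.84 and 1.06, a difference of 2.91 ± 0.33 (adjusted p = 6.59e-06). Among the membrane regulators CD55 went from 1.21, 1.66 and 1.58 to 4.13, 4.03 and 4.05, a difference of 2.59 ± 0.21 (adjusted p = 3.26e-07). CD59 went from 3.66, 3.62 and 3.57 to 5.81, 5.17 and 5.17, a difference of 1.77 ± 0.15 (adjusted p = 5.02e-07). CD46 was 4.57 ± 0.19 (SD, n = 3) with TAS1440 and 4.32 ± 0.09 with DMSO and was not called. The groups were separate for all 5 called members. SERPING1, under the filter, read 0.38, 1.22 and 0.92 with TAS1440 against 0 in all DMSO libraries, and C1S was 0.81 ± 0.44 against 0.62 ± 0.04.

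With GSI added to TAS1440, the same 5 genes were lower than with TAS1440 alone, beside 10.4% of all genes higher and 4.32% lower with TAS1440 alone. CFI read 1.55, 0.23 and 0.95 with GSI (difference of TAS1440 alone from TAS1440 plus GSI 5.12 ± 0.43, adjusted p = 2.39e-06), CFB 0.14, 0.05 and 0.05 (2.62 ± 0.26, adjusted p = 5.71e-06) and CD55 1.48, 1.44 and 1.58 (2.57 ± 0.21, adjusted p = 1.91e-06). CFB and CD55 with GSI overlapped their DMSO values. C1R, at 2.71, 2.19 and 2.11, and CD59, at 4.31, 4.11 and 4.19, lay between DMSO and TAS1440 alone (1.57 ± 0.33 and 1.18 ± 0.15, adjusted p = 0.00172 and 3.98e-05). Without library 13 the CD59 difference was 0.97 and was not called. Between TAS1440 plus GSI and DMSO, C1R was called higher (1.33 ± 0.33, adjusted p = 0.00969) and no member lower, beside 5.62% and 3.40% of all genes. CFI, at 0.91 ± 0.66 against 0, was called there only with a pseudocount of 0.1 (adjusted p = 0.00331).

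Among COR-L88 STING KO cells, TAS1440 raised C1R, CFI, CD55 and CD59, beside 10.2% higher and 5.79% lower among all genes. CFI read 2.43, 4.12 and 1.90 against 0 in all DMSO libraries, CD55 2.06, 3.15 and 2.38 against 0.98, 1.15 and 0.90, and CFB 0.52, 1.44 and 0.50 against 0. Library 44 was the highest of its group for each of these genes. Differences were 2.82 ± 0.43 for CFI (adjusted p = 0.00015), 1.52 ± 0.21 for CD55 (adjusted p = 6.05e-05), 0.82 ± 0.26 for CFB (adjusted p = 0.0188, under the size limit) and 2.22 ± 0.33 for C1R (adjusted p = 0.000118). With a pseudocount of 0.1 the CFB difference was 2.99 and was called (adjusted p = 0.000201). CD59 differed by 1.03 ± 0.15 (adjusted p = 0.000103) and was under the size limit without library 41 (0.98) or 44 (0.94) and with median centring (0.99). With TAS1440, STING KO cells were below intact cells in CFI (-3.21 ± 0.43), CFB (-1.88 ± 0.26) and CD55 (-1.54 ± 0.21), with adjusted p of 0.000262, 0.000266 and 0.00027, and in no member above, beside 5.06% lower and 1.48% higher among all genes. Every STING KO library was below every intact one for these 3 genes, and also for CD59 and CD46. CD59 differed by -0.81 and CD46 by -0.56 (adjusted p = 0.00205 and 0.00431), both under the size limit. SERPING1, under the filter, was 0 in all 3 STING KO libraries and 0.38 to 1.22 in the intact ones. C1R was 3.31 ± 0.27 against 3.91 ± 0.69 (SD, n = 3), which overlapped. With DMSO limma called no member between STING KO and intact cells, 2 of 6 tested had an unadjusted p under 0.05, and 0.457% of all genes were called higher and 1.01% lower. Tested as a difference of TAS1440 responses, STING KO minus intact, CFI (-3.21 ± 0.62), CFB (-1.82 ± 0.36) and CD55 (-1.07 ± 0.30) were called lower, with adjusted p of 0.00947, 0.011 and 0.0441. In all 0.921% of genes were called higher and 3.31% lower in this contrast. The CFI call was kept in each alternative run. CFB was not called with a pseudocount of 0.1 (adjusted p = 0.0595), and the CD55 call was lost with 11 of the 12 libraries left out in turn, without the filter, with median centring, with only the compared groups and with a pseudocount of 0.1, with adjusted p up to 0.143. The 5 neuroendocrine markers summed to 27.2 to 27.7 with DMSO, 12.1 to 13.4 with TAS1440, 16.9 to 17.4 with TAS1440 plus GSI and 14.2 to 14.6 with TAS1440 in STING KO cells, and their part in these results was not tested.

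**Figure D3:**
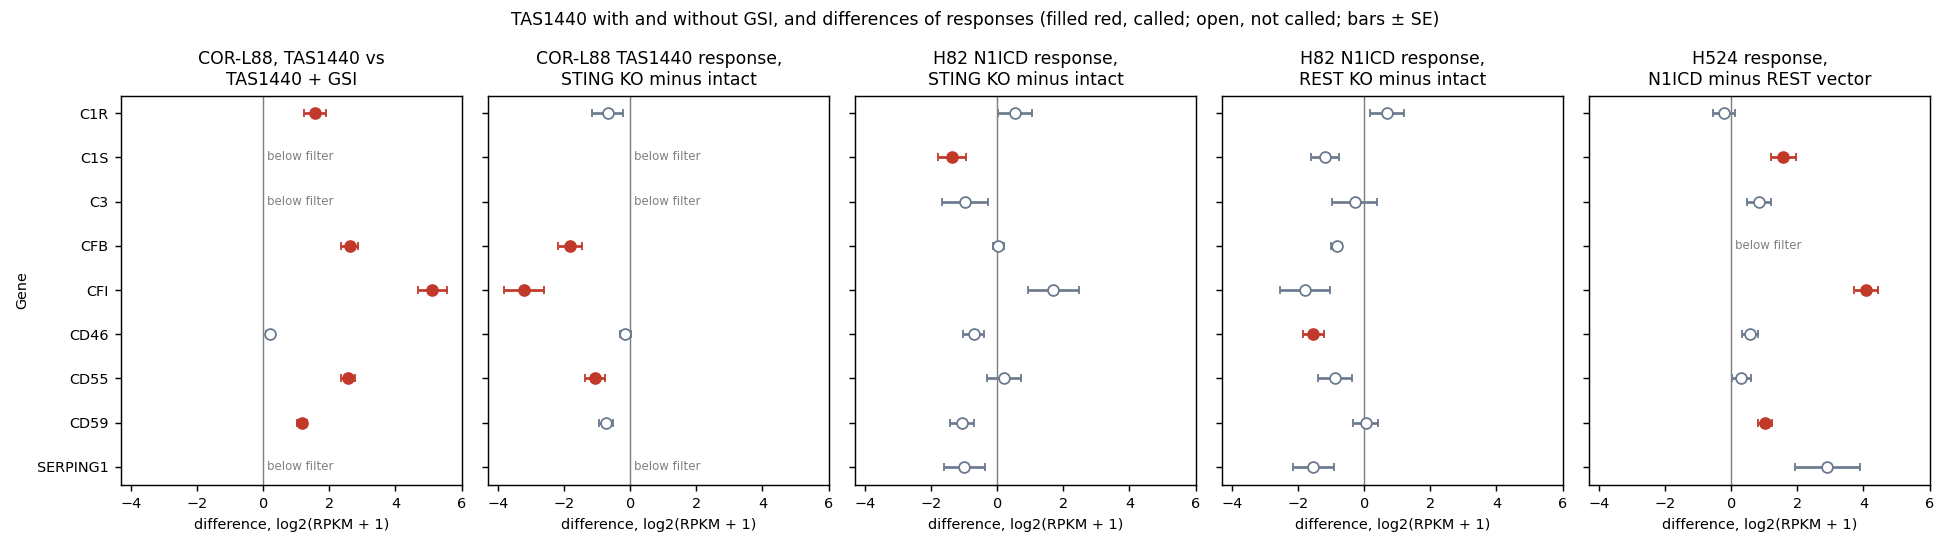
TAS1440 against TAS1440 plus GSI in COR-L88, and differences of responses between STING KO or REST KO and intact cells and between the N1ICD and REST vectors, in log2(RPKM + 1) with ± SE; filled points were called. CFI is negative by 3.21 in COR-L88 STING KO and its value in the H82 cells labelled STING KO, 1.70, is positive and was not called.

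The CFI values with STING KO therefore had opposite signs in the 2 lines. In H82 the difference of responses was 1.70 ± 0.76 (adjusted p = 0.174) and in COR-L88 -3.21 ± 0.62 (adjusted p = 0.00947). The stimuli differ (N1ICD and TAS1440), and the difference between the lines was not tested. With doxycycline, TMEM173 RNA was not lower under the H82 STING KO label, though RNA cannot show a disrupting edit.

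In KP1 none of the 5 listed members passed the filter, so limma tested 0 of them. Among all genes, TAS1440 against DMSO called 9.09% higher and 9.70% lower, TAS1440 against TAS1440 plus GSI 8.50% and 8.00%, and TAS1440 plus GSI against DMSO 0.460% and 0.751%. C3 read 2.89, 0.71 and 0.12 with TAS1440, at most 0.04 with DMSO and at most 0.01 with GSI, so 1 library carried most of its mean. Cd55 read 0.88, 0.99 and 0.88 with DMSO, 0, 0 and 0.02 with TAS1440 and 0.43, 0.26 and 0.23 with GSI, below DMSO in all 3 TAS1440 libraries. Cfi was at most 0.03, Cd46 at most 0.11 and Serping1 at most 0.22 in any KP1 library. The mouse genome carries C1r and C1s under other names, and C1ra and C1s1 were in the wider list used here. C1ra read 2.61, 1.14 and 2.53 with TAS1440, at most 0.02 with DMSO and at most 0.14 with GSI, differing by 2.09 ± 0.33 from DMSO (adjusted p = 0.000918) and by 2.04 ± 0.33 from TAS1440 plus GSI (adjusted p = 0.0012). C1ra passed the filter only through the 3 libraries with TAS1440 alone, so the filter favoured these calls. C1s1 was below the filter and read 2.43, 0.64 and 2.73 with TAS1440 against 0 in all DMSO libraries. Cd59a and Cd55b, further mouse copies named after their values were seen, read 0.32, 0.12 and 0.91 (Cd59a) and 0 in all 3 (Cd55b) with TAS1440, and 0.50, 0.54 and 0.28 (Cd59a) with DMSO. The 5 neuroendocrine markers summed to 16.6 to 19.0 with DMSO, 0.582 to 9.28 with TAS1440 and 17.5 to 19.2 with GSI, and their part was not tested.

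**Figure D4:**
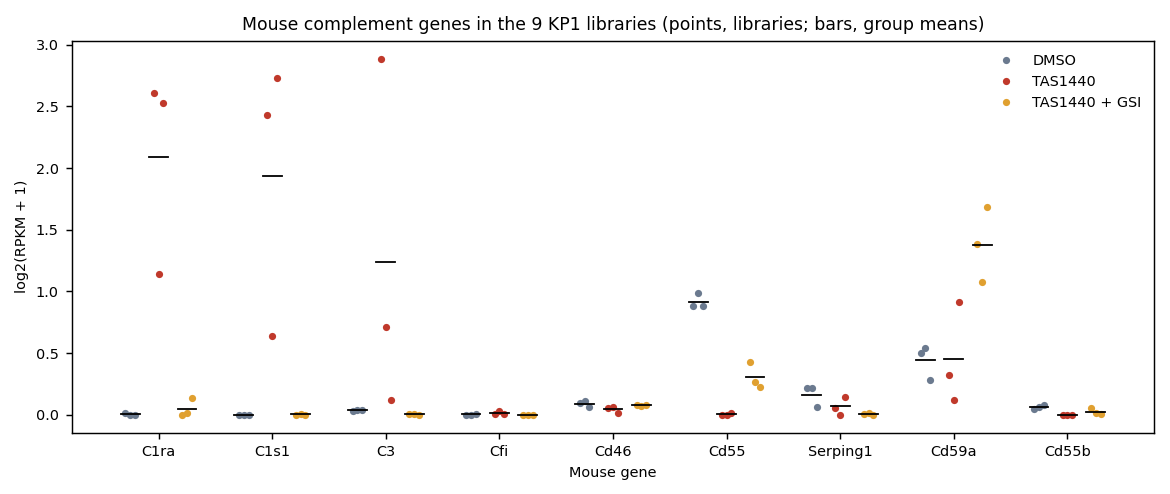
Mouse complement genes, as log2(RPKM + 1), in the 9 KP1 libraries, with 1 point per library and a bar at each mean. C1ra and C1s1 are near 0 without TAS1440 alone and reach 2.61 and 2.73 with it, and Cd55, near 0.9 with DMSO, is at most 0.02 with TAS1440 alone and 0.43 with TAS1440 plus GSI.

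The wider complement list held 49 further genes, of which 47 were in the human table and few were expressed. In H82 N1ICD cells 13 passed the filter, 4 were called higher and 2 lower with doxycycline, beside 14.7% and 12.4% of all genes. C4B and C4A, the near-identical genes of component C4 between which reads cannot be assigned with certainty, differed by 3.11 ± 0.42 and 2.24 ± 0.30, C5, the start of the terminal pathway, by 1.72 ± 0.19, and C7, a terminal component, by -1.44 ± 0.54. In H524 4 of 12 were higher and none lower, beside 11.4% and 7.19%, with C4B at 4.95 ± 0.22, C4A at 4.15 ± 0.22, the scavenger collectin COLEC12 at 3.01 ± 0.23 and C2, the protease partner of C4b, at 1.06 ± 0.22. For REST in H524 none of 12 was called by limma, and 3 had an unadjusted p under 0.05, beside 1.28% higher and 0.586% lower. In H69, where 21.4% of all genes were higher and 20.4% lower, 2 of 8 were higher, COLEC12 at 1.28 ± 0.08 and clusterin (CLU), an inhibitor of the terminal complex, at 1.07 ± 0.16, and 2 were lower, C7 at -4.27 ± 0.32 and factor D (CFD), which cleaves factor B, at -1.61 ± 0.09. C7 was listed at 0 in all 3 induced H69 libraries. In COR-L88 6 of 12 were higher with TAS1440 and 1 was lower, beside 15.3% and 7.46% of all genes, the largest being CLU at 3.30 ± 0.33, C4B at 2.90 ± 0.32, thrombomodulin (THBD) at 2.87 ± 0.35 and CFD at 2.22 ± 0.18. Among H82 cells with REST KO, 3 of 13 were higher and 3 lower with doxycycline, beside 16.2% and 13.7%, led by THBD at 2.53 ± 0.47 and COLEC12 at 2.33 ± 0.31, with C7 at -2.28 ± 0.54 and CFD at -1.77 ± 0.29. H82 cells labelled STING KO had 5 of 13 higher and 1 lower, beside 12.2% and 8.07%, led by COLEC12 at 2.86 ± 0.31, with C7 at -2.07 ± 0.54, C4B at 1.83 ± 0.42 and C5 at 1.42 ± 0.19. In COR-L88 with STING KO 4 of 12 were higher and 1 lower with TAS1440, beside 10.2% and 5.79%, namely CLU (3.37 ± 0.33), C4B (2.11 ± 0.32) and CFD (1.90 ± 0.18) among those higher, and MASP2, a protease of the lectin pathway, at -1.63 ± 0.23. In KP1, with 33 of the list present, 5 of 7 tested were higher with TAS1440 than with DMSO and none lower, beside 9.09% and 9.70%, with C4b at 2.60 ± 0.69, Thbd at 2.11 ± 0.64, C1ra as above and the lectin pathway protease Masp1 at 1.91 ± 0.12. How far the counts of the wider list rest on genes that, like C1ra, passed the filter only through treated libraries was not assessed.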

How the data were processed

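RNA-Seq was measured in 60 libraries of human and 9 of mouse small cell lung cancer cells, grouped by the labels in sets of 3. The deposited values are log2(RPKM + 1) per gene, which the authors made with TMM scaling in edgeR, in 1 table for each species. Per the submitters' processing notes, the tools were cutadapt, STAR, RSEM and edgeR and the builds hg19 and mm10, with no versions given. The pseudocount of 1 was read from the floor of the values at 0. Because RPKM is scaled by length and library size, small values carry few reads.

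Genes that reached a value of 1 in 3 or more libraries of a line (or of all human libraries, for differences between lines) were fitted in limma 3.58.1 (R 4.3.3) with an intensity trend and 1 mean per group, using all groups of the line, or all human groups for differences between lines. Moderated p-values were two-sided and Benjamini-Hochberg adjusted over all genes tested, and a call needed an adjusted p under 0.05 and a difference of at least 1. Medians over all listed genes were taken without the filter. In all 27 comparisons were made, 7 of them differences of responses. The code was tested on simulated data.

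The members and the wider list of 49 complement genes were chosen with earlier results of these data known. Named genes were all members, at most 4 called genes of the wider list in each treatment comparison by size of the difference, the label checks, and the 3 genes most correlated with each member whose group means had an SD of at least 1. In each of the neuroendocrine and leukocyte marker lists, 1 gene is not reported here and was left out of the sums. Figures were drawn with Python 3.11.15 and matplotlib 3.10.9. Positions came from the GRCh37 annotation and promoter windows from RefSeq.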

Additional observations from a re-analysis of the deposited data

Results flagged for a closer look

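All of these were marked because a response differed between lines, genotypes or vectors, and values are differences of responses on the log2(RPKM + 1) scale ± SE from limma. In H82, the doxycycline response of CD46 differed by -1.54 ± 0.32 with REST KO and that of C1S by -1.38 ± 0.42 in cells labelled STING KO. In H524, N1ICD minus REST gave 1.58 ± 0.37 for C1S, 4.07 ± 0.36 for CFI and 1.01 ± 0.22 for CD59. In COR-L88, the TAS1440 response with STING KO minus intact was -1.82 ± 0.36 for CFB, -3.21 ± 0.62 for CFI and -1.07 ± 0.30 for CD55.

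Between lines, H69 minus H82 was 1.78 ± 0.45 for C1R, -1.97 ± 0.35 for C1S, -1.89 ± 0.48 for C3, -3.38 ± 0.63 for CFI, 2.05 ± 0.39 for CD55, -1.31 ± 0.27 for CD59 and 5.48 ± 0.71 for SERPING1. H524 minus H82 was -1.35 ± 0.48 for C3 and 2.59 ± 0.71 for SERPING1. H69 minus H524 was 1.64 ± 0.45 for C1R, -1.07 ± 0.35 for C1S, -3.69 ± 0.63 for CFI, 1.18 ± 0.24 for CD46, 1.63 ± 0.39 for CD55 and 2.89 ± 0.71 for SERPING1.

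Between COR-L88 and KP1, the libraries of the 2 lines moved in opposite directions. The KP1 minus COR-L88 difference for CD55 was -3.50 for TAS1440 against DMSO and -2.87 for TAS1440 against TAS1440 plus GSI, and for SERPING1 it was -0.56 for TAS1440 plus GSI against DMSO. These compare tables normalized separately, and the differences were not tested. SERPING1 was under the filter in both lines. In the DMSO and TAS1440 plus GSI groups it was at most 0.50 in COR-L88 and 0.22 in KP1, and the GSI compounds differed. Cd55 was also under the filter in KP1.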

How the results depend on the processing

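Each comparison was refitted without the filter on low values, with a pseudocount of 0.1 in place of 1, with quantile normalization, with median-centred libraries, with only the compared groups in the model and with each library of the compared groups left out in turn. The number of members called stayed within 1.5 times its value under all of these for N1ICD induction in H82, H524 and H69, for REST KO in H82 and for TAS1440 against DMSO or TAS1440 plus GSI in COR-L88. With quantile normalization the number called for doxycycline in H82 cells labelled STING KO went from 4 to 2. For the cells labelled STING KO against intact cells without doxycycline it went from 1 to 3 with the pseudocount, to 2 with quantile normalization and to 0 with only the compared groups, and it ranged from 0 to 2 with 1 library left out. With doxycycline that contrast went from 3 to between 0 and 5 with 1 library left out. The difference of responses for REST KO went from 1 to 2 with the pseudocount, with quantile normalization and with only the compared groups. That for the cells labelled STING KO went from 1 to 0 without the filter, with the pseudocount and with only the compared groups, and from 0 to 1 over single libraries. With the pseudocount, REST expression in H524 went from 0 to 2, TAS1440 plus GSI against DMSO from 1 to 2 and the STING KO difference of responses in COR-L88 from 3 to 1. H524 minus H82 went from 2 to 0 with only the compared groups and from 1 to 3 over single libraries. The causes were not tested, beyond that fewer groups or libraries leave fewer degrees of freedom.

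Signs changed only for differences that were not called. With quantile normalization these were CD55 for doxycycline in H82 cells labelled STING KO (-0.14, and -0.045 with median centring), SERPING1 with doxycycline (0.20) and C1R without it (-0.0383) between those and intact cells, CFB in their difference of responses (-0.0353, and -1.06 with the pseudocount), SERPING1 for REST in H524 (0.00772) and CD55 for TAS1440 plus GSI against DMSO (-0.0569). With the pseudocount C1R in the N1ICD minus REST difference in H524 became 0.29. With 1 library left out, N1ICD induction in H82 gave -0.31 to 0.61 for SERPING1 and -0.71 to 0.23 for CD55, and doxycycline in cells labelled STING KO -0.23 to 0.26 for CD55. With doxycycline, REST KO against intact cells gave -0.50 to 0.0881 for CD59 and -0.68 to 0.15 for C3, and STING KO -0.40 to 0.35 for SERPING1 and -1.17 to 0.11 for C3. Without doxycycline, REST KO gave -0.18 to 0.75 for CD55, -0.0466 to 0.0568 for C1S and -0.0194 to 0.17 for C3, and STING KO -0.0803 to 0.26 for C1R and -0.22 to 0.30 for CFI. The differences of responses gave -0.16 to 0.43 for CD59 and -0.76 to 0.0698 for C3 with REST KO, and -0.0425 to 0.12 for CFB and -0.19 to 0.74 for CD55 with STING KO. In H524, CD46 gave -0.12 to 0.0158 with N1ICD, SERPING1 -0.20 to 0.0837 and CD55 -0.13 to 0.0204 with REST, and C1R -0.47 to 0.0797 in the difference between them and -0.12 to 0.43 in H524 minus H82. In COR-L88, TAS1440 plus GSI against DMSO gave -0.11 to 0.11 for CD55, -0.0311 to 0.0932 for CD46 and -0.000164 to 0.0428 for CFB, and STING KO with DMSO -0.27 to 0.32 for C1R.

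No paired analysis was possible because the numbers in the sample names count libraries through the series and are not shared between compared groups. Read counts were not used, so values near 0 carry a counting error that is unknown, and members under the filter of their line (C1S, CFB and CFI in H69, C1S, C3 and SERPING1 in COR-L88, CFB in H524 and all 5 in KP1) were not tested within it, while differences between lines, filtered over all human libraries, tested all 9 members.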

Other observations

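Over the 20 human group means, 4 members had an SD of at least 1, and the genes most like them among 3841 compared were listed by Pearson correlation as a description. The points share lines, and the groups fall into lines, so the values mix differences between lines with those of treatment. For C3 they were PLA2G2A (r = 0.967), SDS (0.955) and CREB3L1 (0.950). For CFI they were NFKBIZ (r = 0.901), GPNMB (0.895) and ACP5 (0.892). For CD55 they were LYN (r = 0.878), TMEM159 (0.861) and GSTM2 (0.817), and for SERPING1 PLTP (r = 0.972), CCNYL2 (0.971) and TNFRSF10B (0.970).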
